A study of Mus musculus with 12 samples.

Results

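The 10 genes described here are direct targets of the transcription factor p53 that act in cell cycle arrest, in feedback on p53 and in cell death, namely Cdkn1a, Gadd45a, Plk2, Ccng1, Mdm2, Bax, Bbc3, Pmaip1, Trp53inp1 and Sesn2. They were taken by gene symbol from a table of 45777 genes, and all 10 were among the 17885 genes with enough counts to be tested. RNA was sequenced from subcutaneous tumours of 393P, a mouse lung cancer cell line, grown in male 129S2/SvPasCrl mice injected at 8 weeks of age. There were 4 groups of 3 libraries. The first held MAVS reconstituted tumours under the MPS1 inhibitor BAY-1217389, and the second MAVS reconstituted tumours under control treatment. The third held MAVS knockout tumours under the inhibitor, and the fourth MAVS knockout tumours under control treatment. The sample titles name the reconstituted libraries MAVS, the knockout libraries Luc and the controls Veh, and the labels do not explain Luc. The inhibitor was given at 5 mg/kg, 2 doses a day for 2 days, with collection on the next day. The host mice were not stated to lack any gene, so host cells in every tumour piece could express Mavs and all 10 genes.

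p53 is held at a low level in unstressed cells by Mdm2, which tags it for destruction, and DNA damage or mitotic errors can release it. Active p53 binds paired half-sites in DNA and raises Cdkn1a (p21), which stops cyclin-dependent kinases, and BCL2-family genes such as Bax and Bbc3, which open the way to apoptosis. MPS1, the product of Ttk, is a spindle checkpoint kinase, and its loss of function makes cells divide with missegregated chromosomes. MAVS relays signals from cytosolic RNA sensors to interferon genes. As background on the model, 393P was derived from a mouse lung tumour with a mutant p53 allele, and the sources used here do not say whether the injected cells keep functional p53.

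Library totals ran from 52983715 to 69108411 counts, and the lowest count of any of the 10 genes was 330, for Sesn2 in 1 library. Levels below are CPM, which are counts scaled for the size of each library. Mavs itself had 50.1, 53.8 and 62.8 CPM in reconstituted tumours under the inhibitor and 85.1, 68.9 and 59.1 CPM in reconstituted controls, against 43.5, 39.4 and 41.0 CPM in knockout tumours under the inhibitor and 40.5, 42.5 and 45.7 CPM in knockout controls, so the labels and the Mavs level went together without a knockout library at 0. Ttk lay between 15.2 and 22.5 CPM over the 12 libraries. Genotype goes with the injected cell population, and a difference between both populations other than MAVS cannot be told apart from it. The labels do not state that replicates came from separate animals, so p-values measure the spread between these libraries. Reconstituted inhibitor library 1 stood apart on the first principal component (a score of 103, against -48.6 to 28.7 in the other libraries).

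The promoters of 8 of the 10 genes were found in the RefSeq table of GRCm38.p6, in windows from 250 bases before to 50 bases after a gene start. Those of Pmaip1 and Trp53inp1 were not matched. The p53 half-site, the 10-base consensus of p53 binding searched on both strands, was present in a window of 5 of the 8 (Cdkn1a, Mdm2, Gadd45a, Ccng1 and Bax), and in the windows of 9.55% of all genes. The interferon-stimulated response element GAAANNGAAA, also searched on both strands, was present in the window of Plk2 alone among the 8, and in those of 3.99% of all genes. A match is a description of the letters and no evidence of binding. Shown are 4 windows, for the pair of genes that stood highest under the inhibitor in reconstituted tumours (Cdkn1a and Bax) and for Gadd45a and Plk2, which were lower in reconstituted than in knockout tumours. Capitals mark the half-sites in the first 3 and the interferon element, read on the opposite strand, in Plk2.
Cdkn1a, chr17:29090729-29091028, plus strand: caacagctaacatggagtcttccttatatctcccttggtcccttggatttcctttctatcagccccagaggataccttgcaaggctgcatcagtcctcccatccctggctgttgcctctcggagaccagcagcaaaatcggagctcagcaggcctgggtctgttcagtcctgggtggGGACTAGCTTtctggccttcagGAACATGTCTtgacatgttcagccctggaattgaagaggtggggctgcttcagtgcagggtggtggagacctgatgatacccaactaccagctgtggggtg
Bax, chr7:45466849-45467148, minus strand: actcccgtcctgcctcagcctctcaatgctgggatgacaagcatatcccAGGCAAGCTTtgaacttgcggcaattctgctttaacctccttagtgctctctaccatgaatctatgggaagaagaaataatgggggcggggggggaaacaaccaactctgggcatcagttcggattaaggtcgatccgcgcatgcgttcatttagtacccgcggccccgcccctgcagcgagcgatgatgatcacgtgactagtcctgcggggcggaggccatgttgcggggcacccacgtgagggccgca
Gadd45a, chr6:67037358-67037657, minus strand: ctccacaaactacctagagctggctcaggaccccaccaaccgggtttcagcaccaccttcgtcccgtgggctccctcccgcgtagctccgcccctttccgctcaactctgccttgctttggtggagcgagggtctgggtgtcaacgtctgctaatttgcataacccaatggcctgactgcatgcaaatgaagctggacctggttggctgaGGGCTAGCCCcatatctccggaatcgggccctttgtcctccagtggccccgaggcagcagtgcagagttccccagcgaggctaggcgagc
Plk2, chr13:110394794-110395093, plus strand: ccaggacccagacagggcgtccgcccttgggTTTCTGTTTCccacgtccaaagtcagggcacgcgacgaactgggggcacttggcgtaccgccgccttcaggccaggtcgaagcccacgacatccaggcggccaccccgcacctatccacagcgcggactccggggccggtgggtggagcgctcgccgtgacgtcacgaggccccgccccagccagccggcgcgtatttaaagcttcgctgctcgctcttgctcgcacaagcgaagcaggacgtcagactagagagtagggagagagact

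Per kilobase of transcript, Bax was the most abundant of the 10, at a mean of 61.3 CPM per kb over the 12 libraries with a range of 48.1 to 86.6, and its range lay above that of every other member. Ccng1 followed at 33.01 (28.6 to 36.5), Plk2 at 31.6 (18.7 to 44.0), Cdkn1a at 24.0 (19.4 to 33.8) and Pmaip1 at 17.6 CPM per kb (13.6 to 23.6). Mdm2 had 16.9 (14.9 to 18.3), Gadd45a 13.6 (8.78 to 21.5), Bbc3 11.8 (7.90 to 15.0) and Trp53inp1 8.81 CPM per kb (7.48 to 10.2). Sesn2 was the least abundant, at 2.70 CPM per kb (1.81 to 3.73), with its whole range below that of every other member. Between Ccng1 and Trp53inp1, each gene's range overlapped that of its neighbour in this order.

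**Figure D1:**
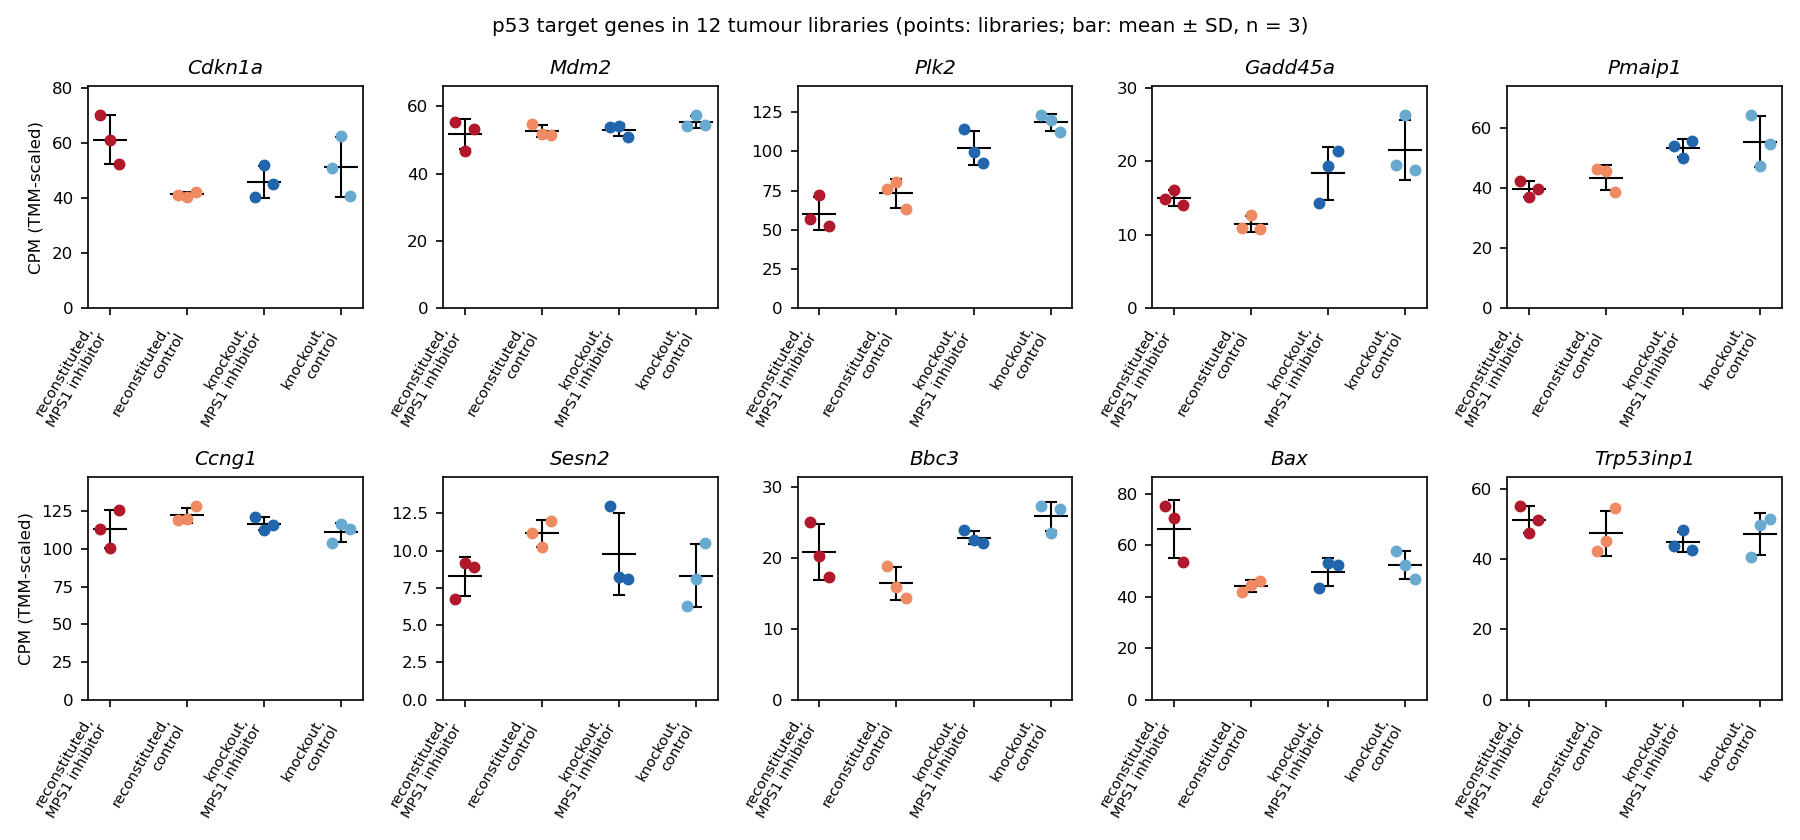
Levels of the 10 p53 target genes (CPM, vertical axis from 0) in the 12 libraries by group, with a bar at the mean ± SD of 3 libraries. Plk2 lies at 52.2 to 80.6 CPM in the 6 reconstituted libraries and at 92.6 to 123 CPM in the 6 knockout libraries, while Mdm2 stays between 46.8 and 57.4 CPM in all 12.

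The clearest difference among the 10 genes was between genotypes. Plk2, Gadd45a and Pmaip1 fell in MAVS reconstituted tumours relative to MAVS knockout tumours, averaged over both treatments. The other 7 did not pass the test. These 3 genes belong to different arms of the p53 response, since Plk2 is a polo-like kinase that acts on centriole duplication, Gadd45a a small stress protein that restrains the cell cycle and takes part in DNA repair, and Pmaip1 (NOXA) a BH3-only protein that neutralises MCL1. The comparison asked what MAVS in the injected cells goes with, whichever treatment was given.

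Plk2 (gene ID 20620, chromosome 13, 110395044 to 110400844) had 56.8, 72.0 and 52.2 CPM in reconstituted tumours under the inhibitor and 75.9, 80.6 and 63.1 CPM in reconstituted controls. It had 114, 99.8 and 92.6 CPM in knockout tumours under the inhibitor and 123, 120.2 and 113 CPM in knockout controls. All 6 reconstituted libraries lay below all 6 knockout libraries. The log2 difference was -0.73 ± 0.09 (SE, edgeR adjusted p = 0.00329), a level 0.603 times that of knockout tumours. Plk2 was called in each of the 12 fits that left out 1 library, with edgeR adjusted p-values of 0.0021 to 0.0138.

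Gadd45a (gene ID 13197, chromosome 6, 67035096 to 67037407) had 14.9, 16.1 and 13.99 CPM in reconstituted tumours under the inhibitor and 11.0, 12.7 and 10.7 CPM in reconstituted controls. It had 14.4, 19.4 and 21.4 CPM in knockout tumours under the inhibitor and 19.5, 26.3 and 18.8 CPM in knockout controls. The genotypes overlapped under the inhibitor through knockout library 1 and were separate in the controls. The averaged log2 difference was -0.60 ± 0.12 (SE, edgeR adjusted p = 0.0300). The call was lost without any 1 of 7 libraries, with edgeR adjusted p-values of 0.0559 without reconstituted inhibitor library 1, 0.0541 without reconstituted inhibitor library 3, 0.0704 without reconstituted control library 1, 0.0839 without reconstituted control library 3, 0.0836 without knockout inhibitor library 2, 0.0819 without knockout inhibitor library 3 and 0.0649 without knockout control library 2.

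Pmaip1 (gene ID 58801) had 42.3, 37.1 and 39.6 CPM in reconstituted tumours under the inhibitor and 46.3, 45.5 and 38.6 CPM in reconstituted controls. It had 54.1, 49.9 and 55.6 CPM in knockout tumours under the inhibitor and 64.3, 47.4 and 54.6 CPM in knockout controls. The highest reconstituted library, at 46.3 CPM, lay just below the lowest knockout library, at 47.4 CPM, so the genotypes did not overlap. The averaged log2 difference was -0.39 ± 0.08 (SE, edgeR adjusted p = 0.0428). This call stood just inside the threshold. Leaving out knockout control library 2 kept it (edgeR adjusted p = 0.0314), while leaving out any other single library lost it, at 0.0514 to 0.114, and so did testing without a filter on low counts, at 0.0506.

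Of the 10 genes, 3 were thus called in the averaged genotype comparison, all lower, where 1.56% of all genes tested were called and 0.47% were called lower. Plk2 and Pmaip1 were the members whose 6 reconstituted libraries all lay below the 6 knockout libraries, as was so for 0.783% of all genes. Bbc3 (PUMA, gene ID 170770, chromosome 7, 16308398 to 16318334), which encodes a BH3-only protein that activates BAX, had 18.1 CPM as its median in the 6 reconstituted libraries (14.3 to 25.02) and 23.7 CPM in the 6 knockout libraries (22.1 to 27.2). Its log2 difference of -0.40 ± 0.10 (SE) did not pass (edgeR adjusted p = 0.0826), and it did without reconstituted inhibitor library 1 (-0.47, edgeR adjusted p = 0.0318). The other 6 genes lay between -0.05 (Mdm2) and 0.10 (Trp53inp1) on the log2 scale. Of the 10 genes 5 were higher and 5 lower, with a median of -0.00, beside 0.00 over all genes.

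Under the inhibitor alone, Plk2 was the 1 member called between genotypes, with a log2 difference of -0.76 ± 0.13 (SE, edgeR adjusted p = 0.0321). That was 1 of 10 against 0.649% of all genes tested, or 0.129% for calls of lower expression. Pmaip1 had -0.42 ± 0.12 (SE, edgeR adjusted p = 0.110), and its 3 reconstituted libraries lay below the 3 knockout libraries. Cdkn1a at 0.42 ± 0.16 and Bax at 0.42 ± 0.13 (SE, edgeR adjusted p = 0.182 and 0.135) pointed the other way, with all 3 reconstituted libraries above the 3 knockout libraries. Non-overlap in that direction held for 10.9% of all genes, and for 9.77% in the direction of Plk2 and Pmaip1. The remaining 6 members lay between -0.30 (Gadd45a) and 0.19 (Trp53inp1). The Plk2 call was lost without reconstituted inhibitor library 1 (edgeR adjusted p = 0.112), reconstituted control library 1 (0.0540), knockout control library 3 (0.0543) or any 1 knockout inhibitor library (0.183, 0.105 and 0.0944), and in a fit of those 6 libraries alone (0.111). Without reconstituted inhibitor library 3, Bax was called too, at 0.55 (edgeR adjusted p = 0.0195), along with 2816 genes in all.

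In controls, 0 of the 10 genes were called between genotypes by edgeR, where 0.14% of all genes were. At an unadjusted p below 0.05 there were 4 members (all lower), beside 18.7% of all genes. DESeq2 called 3 (Gadd45a, Plk2 and Bbc3), along with 827 genes in all, and limma-voom called 0 members. The largest differences were those of Gadd45a at -0.91 ± 0.17, Plk2 at -0.70 ± 0.13 and Bbc3 at -0.66 ± 0.14 (SE, edgeR adjusted p = 0.0683, 0.0735 and 0.108). Bbc3 had 18.9, 15.9 and 14.3 CPM in reconstituted controls, against 27.2, 23.5 and 26.8 CPM in knockout controls. Gadd45a, Plk2, Bbc3, Pmaip1 and Bax had all 3 reconstituted controls below the 3 knockout controls, as did 15.5% of all genes. Ccng1 had them above (119, 119.9 and 128 CPM against 104, 116 and 113 CPM), as did 15.6% of all genes. Without reconstituted inhibitor library 3, Plk2 was called, at -0.70 (edgeR adjusted p = 0.0469).

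**Figure D2:**
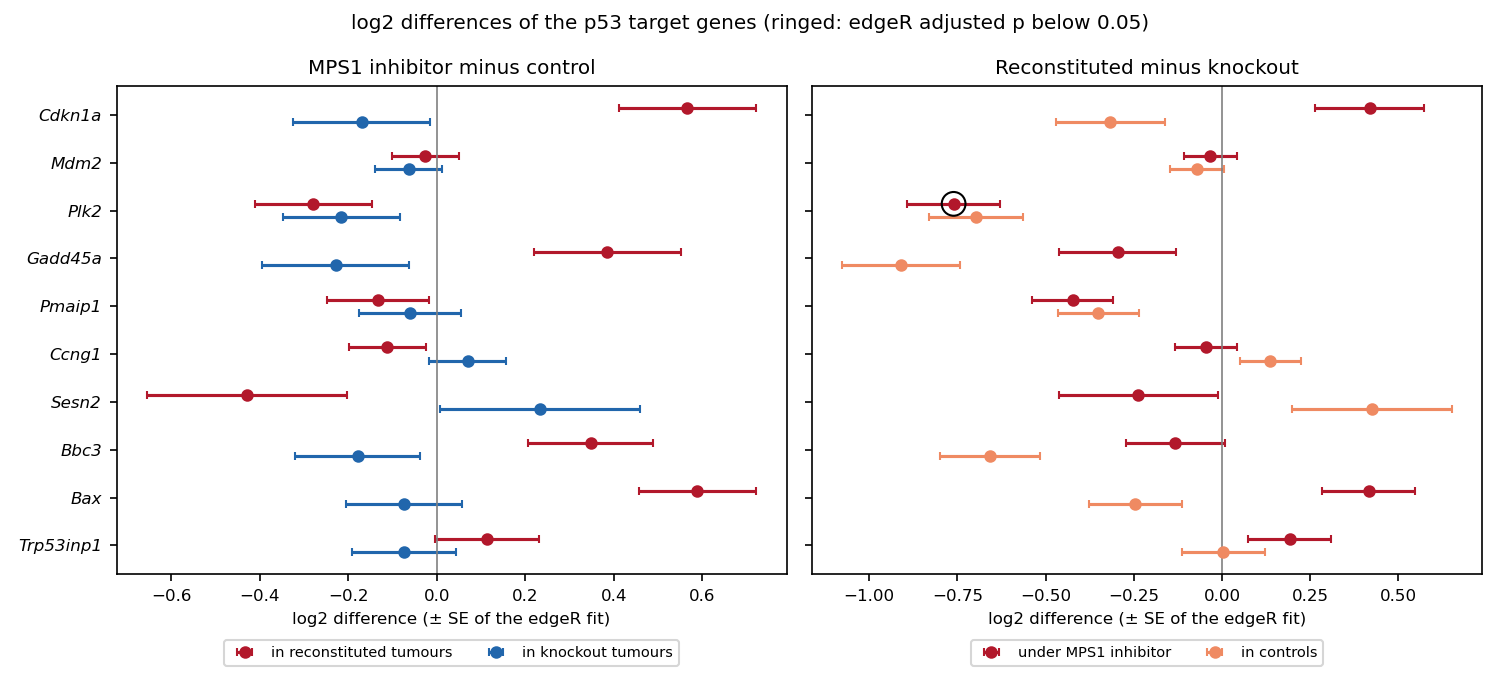
Log2 differences of the 10 genes with the SE of the edgeR fit (horizontal axis), on the left for the inhibitor against control in each genotype and on the right for reconstituted against knockout tumours under each treatment. The ring marks the 1 called value, Plk2 at -0.76, and Cdkn1a and Bax stand at 0.57 and 0.59 for the inhibitor in reconstituted tumours.

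In reconstituted tumours, the inhibitor went with no call among the 10 genes, of which 5 were higher and 5 lower (the gene positions given are RefSeq, GRCm38.p6). Bax, the pore-forming effector of apoptosis, and Cdkn1a stood highest, followed by Gadd45a and Bbc3, and these 4 had an unadjusted p below 0.05, as did 32.6% of all genes. Mdm2 and Ccng1, targets that feed back on p53, were close to control. The comparison asked how pulsed MPS1 inhibition acts where MAVS is present.

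Cdkn1a (gene ID 12575, chromosome 17, 29090979 to 29100722) had 70.2, 61.0 and 52.3 CPM under the inhibitor, against 41.3, 40.3 and 42.4 CPM in reconstituted controls. Bax (gene ID 12028, chromosome 7, 45461695 to 45466903) had 75.1, 70.5 and 53.5 CPM under the inhibitor, against 41.7, 44.6 and 46.1 CPM in controls. For both genes the 3 libraries under the inhibitor lay above the 3 controls and were spread more widely, with library 1 the highest and library 3 the lowest. The log2 differences were 0.57 ± 0.16 for Cdkn1a and 0.59 ± 0.13 for Bax (SE, edgeR adjusted p = 0.0729 for both). No gene had a smaller adjusted value, but many genes shared this one. Ranked by unadjusted p, Bax was 104th and Cdkn1a 861st of the 17885 genes tested. Without reconstituted inhibitor library 1 the log2 differences of Cdkn1a and Bax were 0.45 and 0.49 (edgeR adjusted p = 0.261 for both).

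Gadd45a had 14.9, 16.1 and 13.99 CPM under the inhibitor, against 11.0, 12.7 and 10.7 CPM in reconstituted controls. The groups were separate, and the log2 difference was 0.39 ± 0.17 (SE, edgeR adjusted p = 0.136). Bbc3 had 25.02, 20.3 and 17.2 CPM under the inhibitor, against 18.9, 15.9 and 14.3 CPM in controls. These groups overlapped, and the log2 difference was 0.35 ± 0.14 (SE, edgeR adjusted p = 0.119). Sesn2 (gene ID 230784, chromosome 4, 132492804 to 132510456), which encodes a stress-induced inhibitor of growth signalling through mTORC1, had 6.76, 9.16 and 8.91 CPM under the inhibitor, against 11.2, 10.2 and 12.01 CPM in controls. Sesn2 was thus the 1 member with all 3 inhibitor libraries below the controls, at -0.43 ± 0.23 (SE, edgeR adjusted p = 0.208). Plk2 was at -0.28 ± 0.13 (SE, edgeR adjusted p = 0.166).

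Mdm2 (gene ID 17246, chromosome 10, 117688875 to 117710758) had 55.3, 46.8 and 53.1 CPM under the inhibitor, against 54.8, 51.9 and 51.4 CPM in reconstituted controls, a log2 difference of -0.03 ± 0.08 (SE). Ccng1 (gene ID 12450, chromosome 11, 40748552 to 40755309), which encodes cyclin G1 and is known to recruit a phosphatase to Mdm2, had 113, 101 and 126 CPM under the inhibitor, against 119, 119.9 and 128 CPM in controls. Both genes overlapped between the groups. Trp53inp1 (gene ID 60599, chromosome 4, 11156441 to 11174379), a target that promotes autophagy and cell death, had 54.9, 47.4 and 51.1 CPM under the inhibitor, against 42.3, 45.1 and 54.4 CPM in controls. It overlapped too, with control library 3 near the top of the inhibitor range. The Trp53 transcript itself had 44.0, 42.5 and 38.4 CPM under the inhibitor, against 36.9, 39.7 and 40.2 CPM in controls, also with overlap.

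By edgeR, 0 of the 10 genes were called in this comparison, as were 0% of all genes. At an unadjusted p below 0.05 there were 4 (Cdkn1a, Gadd45a, Bbc3 and Bax), beside 32.6% of all genes, a share that puts 4 of 10 near the background. Non-overlapping groups were seen for 3 members higher and 1 lower, beside 14.7% and 14.8% of all genes. DESeq2 called Bax and Cdkn1a (adjusted p = 0.00462 and 0.0114), along with 3668 genes in all, and limma-voom called 0 members. Without reconstituted inhibitor library 3, edgeR called 3, namely Bax at 0.72, Cdkn1a at 0.67 and Bbc3 at 0.46 (adjusted p = 0.00436, 0.0121 and 0.0232), along with 5683 genes in all.

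The 4 members with the highest values have the 4 shortest transcripts of the 10, and a trend with transcript length ran through the whole comparison. Over 14391 protein-coding genes, the median log2 difference was 0.32 in the shortest of 4 equal classes of transcript length (under 1974 bases) and -0.29 in the longest (from 4623 bases). Bax, with a transcript of 867 bases, stood at 0.59 beside a median of 0.50 for the 716 genes of like length (0.8 to 1.25 times its own). Gadd45a, with 1223 bases, stood at 0.39 beside 0.34. Bbc3, with 1814 bases, stood at 0.35 beside 0.19. Cdkn1a, with 2080 bases, stood at 0.57 beside 0.14 for 3060 genes.

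When a length trend per library was taken out in the edgeR fit, a step chosen after seeing the data, Bax was at 0.09 ± 0.06 and Gadd45a at 0.04 ± 0.16 (SE, edgeR adjusted p = 0.332 and 0.900). In that fit Bbc3 was at 0.14 ± 0.13 and Cdkn1a at 0.43 ± 0.14 (SE, edgeR adjusted p = 0.493 and 0.113). Trp53inp1, which has the longest transcript of the 10 at 5404 bases, was at 0.11 ± 0.12 without the length term and at 0.34 ± 0.13 with it (SE, edgeR adjusted p = 0.524 and 0.148). Again 0 of the 10 were called in that fit, as were 0% of its 14505 genes. Cdkn1a, Plk2 and Trp53inp1 had an unadjusted p below 0.05 in it. The share of all genes at that p was not taken in that fit, and was 32.6% without the length term. For each library, log2 CPM were also taken as deviations from each gene's own mean over the 12 libraries. On these deviations, the median of the shortest class minus that of the longest was 0.66 and 0.40 in reconstituted inhibitor libraries 1 and 2. It was -0.14 in library 3. It stood at -0.38, -0.30 and -0.21 in the reconstituted controls. RNA quality was not given per library, and its part in the trend was not tested.

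**Figure D3:**
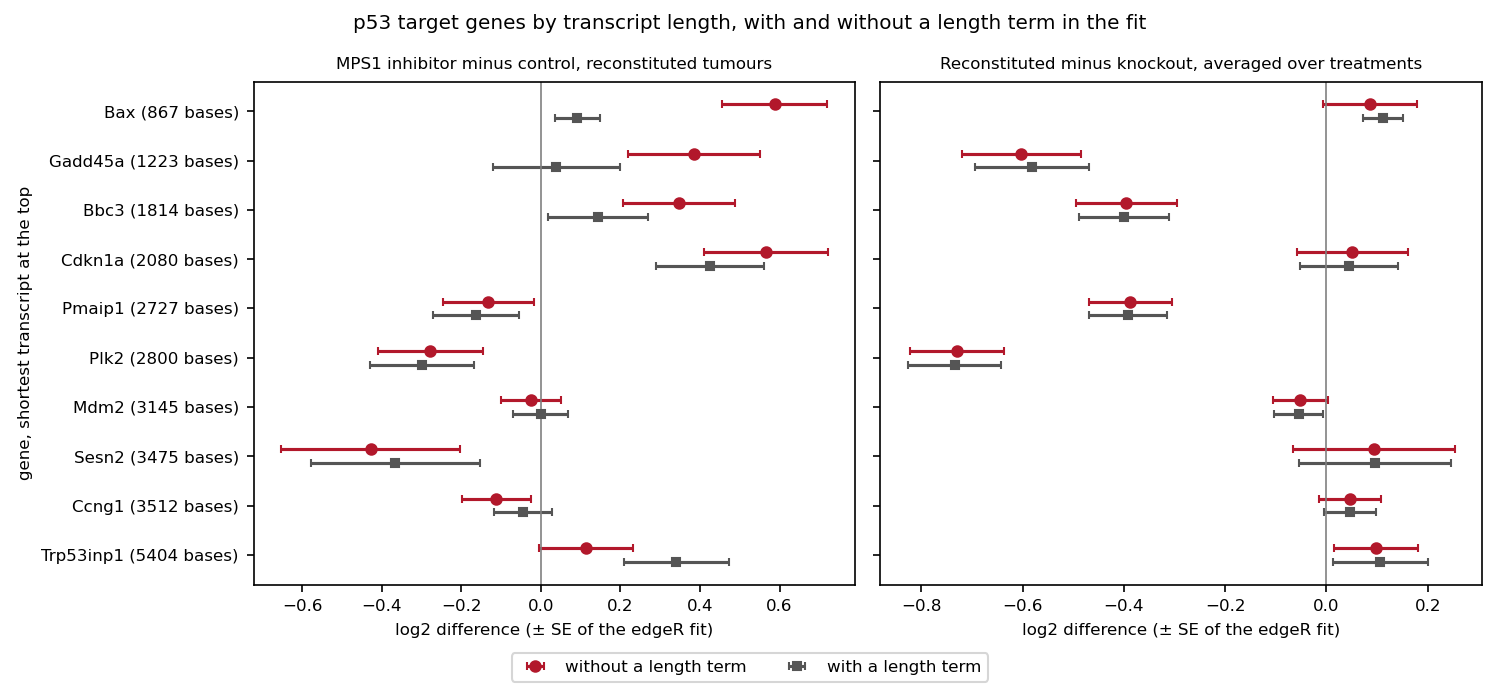
Log2 differences of the 10 genes with the SE of the edgeR fit, ordered by transcript length, without and with a trend on length per library, for the inhibitor in reconstituted tumours (left) and for the averaged genotype comparison (right). On the left Bax moves to 0.09 and Cdkn1a to 0.43 with the length term, and on the right Plk2 stays at -0.73.

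The genotype comparisons under each treatment had length trends of opposite direction. Under the inhibitor the median was 0.19 in the shortest and -0.18 in the longest class, and in controls it was -0.18 in the shortest and 0.14 in the longest. In the averaged comparison, where both enter, the medians of the shortest and the longest class were -0.01 and -0.02, and with the length term Plk2 was at -0.73, Gadd45a at -0.58, Pmaip1 at -0.39 and Bbc3 at -0.40 (edgeR adjusted p = 0.00209, 0.0195, 0.0203 and 0.0328), so that 4 of 10 were called beside 4.01% of the 14505 genes with a known length. Under the inhibitor alone, Plk2 was at -0.77 with it and Bax at 0.14 (edgeR adjusted p = 0.0191 and 0.181). In controls, Gadd45a was at -0.69, Plk2 at -0.69 and Bbc3 at -0.55 with the length term. None of these was called in controls (edgeR adjusted p = 0.0809, 0.0519 and 0.0809). Bax was at 0.08 in that fit of the controls, in place of -0.25.

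In knockout tumours the inhibitor moved none of the 10 genes past the test. Cdkn1a had 40.3, 52.0 and 45.1 CPM under the inhibitor, against 51.1, 62.6 and 40.8 CPM in knockout controls. Bax had 43.5, 53.2 and 52.4 CPM under the inhibitor, against 57.6, 52.5 and 46.8 CPM in knockout controls. Both genes overlapped, and their log2 differences were -0.17 ± 0.16 and -0.07 ± 0.13 (SE). Plk2 had 114, 99.8 and 92.6 CPM under the inhibitor, against 123, 120.2 and 113 CPM in knockout controls, a difference of -0.22 ± 0.13 (SE). Sesn2 had 13.0, 8.23 and 8.09 CPM under the inhibitor, against 6.28, 8.11 and 10.5 CPM in knockout controls, with a difference of 0.23 ± 0.23 (SE) that rested on library 1.

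All 10 genes had an edgeR adjusted p of 1 in knockout tumours. The count called was 0, beside 0% of all genes, and 0 members had an unadjusted p below 0.05, beside 1.71% of all genes. DESeq2 and limma-voom also called 0 members. Mdm2 was the 1 member with non-overlapping groups, at 53.8, 54.2 and 50.9 CPM under the inhibitor, against 54.2, 57.4 and 54.4 CPM in knockout controls, by a margin too small to see at 3 digits. Such non-overlap in the lower direction held for 4.25% of all genes.

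The inhibitor effect in reconstituted tumours minus that in knockout tumours, the interaction, had its highest values for Cdkn1a at 0.74 ± 0.22 and Bax at 0.66 ± 0.19 (SE, edgeR adjusted p = 0.144 for both). Sesn2 lay as far in the other direction at -0.66 ± 0.32, with Gadd45a at 0.61 ± 0.23 and Bbc3 at 0.53 ± 0.20 (SE, edgeR adjusted p = 0.221, 0.158 and 0.157). None of the 10 was called, as were 0% of all genes. At an unadjusted p below 0.05 there were 4 members, beside 24.7% of all genes. DESeq2 called 2 (Bax and Cdkn1a), along with 1365 genes in all, and limma-voom called 0 members. With the length term Cdkn1a was at 0.58 ± 0.19 and Bax at 0.06 ± 0.08 (SE, edgeR adjusted p = 0.165 and 0.681). Without reconstituted inhibitor library 3, edgeR called Bax at 0.79, Cdkn1a at 0.83 and Bbc3 at 0.64, along with 4005 genes in all.

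Averaged over genotypes, the inhibitor moved 0 of the 10 past the test, as it did 0% of all genes, and DESeq2 and limma-voom called 0 members as well. Bax at 0.26 ± 0.09 and Plk2 at -0.25 ± 0.09 (SE, edgeR adjusted p = 0.522 for both) were the 2 with an unadjusted p below 0.05, beside 7.82% of all genes. Plk2 was at -0.28 in reconstituted and -0.22 in knockout tumours, and Pmaip1 and Mdm2 also had negative values in both genotypes. No member had 6 inhibitor libraries apart from 6 controls, as 0.145% of all genes had.

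Among themselves the 10 genes did not move as a block. Of the 45 pairs, Bax and Cdkn1a varied together most closely over the 12 libraries (Pearson r = 0.888, adjusted p = 0.00765; Spearman rho = 0.853, adjusted p = 0.0360; permutation tests with 100000 resamples, adjusted over the pairs). Without the 2 libraries farthest from the median of Bax, r was 0.779. On deviations from the group means r was 0.722 (permutation p = 0.00761, adjusted p = 0.178). The permutations treated the 12 libraries as exchangeable, although they fall into 4 groups and deviations within a group depend on each other. The points share the length trend given above, and its part in the relation was not tested. Plk2 and Pmaip1 were the other pair to pass by Pearson r (r = 0.823, permutation test, adjusted p = 0.0322), but not by rank (rho = 0.811, adjusted p = 0.0511). Their points fall into separate genotype clusters, within which r was 0.457 in the 6 reconstituted and 0.195 in the 6 knockout libraries. Bax and Sesn2 ran in opposite directions (r = -0.729, permutation test, adjusted p = 0.0990; rho = -0.762, adjusted p = 0.0792) without passing, and r was -0.910 without the 2 farthest libraries.

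**Figure D4:**
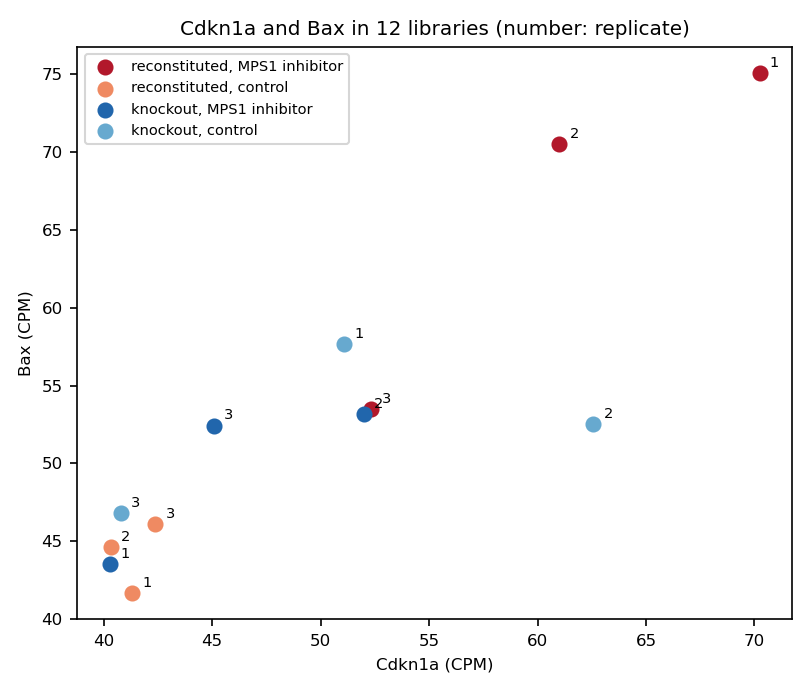
Cdkn1a (horizontal) and Bax (vertical) in CPM in the 12 libraries, coloured by group and numbered by replicate. Reconstituted inhibitor libraries 1 and 2 stand at the upper right, with 70.2 and 61.0 CPM of Cdkn1a and 75.1 and 70.5 CPM of Bax. Library 3 of that group lies among the knockout libraries. Knockout control library 2 has 62.6 CPM of Cdkn1a with 52.5 CPM of Bax.

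Of 12002 genes with a mean of at least 1 log2 CPM, those most like Cdkn1a over the 12 libraries included the non-coding RNA Gas5 (r = 0.942), the chemokine receptor gene Ackr3 (0.936), Isoc2a (0.934) and the lysyl hydroxylase gene Plod3 (0.933), as a description over libraries that share depth and length trend. Bax was 54th in that order. Mdm2, with r = 0.08, was not among the genes like Cdkn1a, and Sesn2 had r = -0.719.

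Other genes of the p53 network gave no call. Of 24 further p53 targets (23 tested, Trp53cor1 not), 0 were called by edgeR in any comparison, and their medians were -0.08 for the inhibitor in reconstituted tumours, 0.01 in knockout tumours, 0.00 between genotypes under the inhibitor and 0.03 in controls. The corresponding medians of the 10 were 0.04, -0.07, -0.09 and -0.28, beside medians of all genes within 0.01 of 0. Phlda3, an inhibitor of AKT, had 0.42 ± 0.11 (SE, edgeR adjusted p = 0.0729) and the death receptor gene Fas 0.75 ± 0.31 (0.125) for the inhibitor in reconstituted tumours, while Zmat3 and Btg2 were at -0.22 and 0.08. Of the 23 tested in that comparison, 9 were higher and 14 lower, with values from -0.73 to 0.75. At an unadjusted p below 0.05, 2 of the 23 were higher and 4 lower, beside 32.6% of all genes in both directions together. Of 16 regulators of p53 (15 tested, Trp73 not), 0 were called, and 12 of 15 were lower under the inhibitor in reconstituted tumours, with a median of -0.21. In that comparison the median over all genes was 0.32 in the shortest class of transcript length and -0.29 in the longest. The part of transcript length in the values of the regulators was not tested.

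Gadd45g, the paralogue of Gadd45a, went the other way between genotypes. It had 50.4, 40.4 and 34.5 CPM in reconstituted tumours under the inhibitor and 22.9, 26.4 and 33.5 CPM in reconstituted controls. It had 12.8, 20.4 and 19.7 CPM in knockout tumours under the inhibitor and 19.6, 22.5 and 14.2 CPM in knockout controls. All 6 reconstituted libraries lay above the 6 knockout libraries, and Gadd45g rose in reconstituted tumours by 0.90 ± 0.16 averaged over treatments and by 1.25 ± 0.23 under the inhibitor (SE, edgeR adjusted p = 0.0199 and 0.0390). It was the 1 of 10 paralogues of the members called in either comparison, beside 1.56% and 0.649% of all genes tested. Whether the Gadd45g calls hold with 1 library left out was not examined. Other paralogues had values that did not pass, such as Ccng2 at -0.21 and Sesn3 at -0.09 in the averaged comparison.

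Among 12 BCL2-family genes (11 tested, Hrk not) 0 were called in any comparison. For the inhibitor in reconstituted tumours 8 of 11 were higher and 3 lower, with a median of 0.26, and Mcl1, the partner of Pmaip1, was at 0.22 ± 0.08 (SE, edgeR adjusted p = 0.103). Among 18 cell cycle genes that p53 and p21 are known to repress, 0 were called, and 17 of 18 were higher under the inhibitor in knockout tumours, with a median of 0.20, while 8 were higher and 10 lower in reconstituted tumours. Of 12 genes of the integrated stress response, which can raise Pmaip1, Bbc3, Sesn2 and Gadd45a without p53, 0 were called in any comparison. In reconstituted tumours under the inhibitor 11 of the 12 were higher and 1 lower, with a median of 0.34. Trib3 was at 1.34 ± 0.32 and Ddit3 at 0.75 ± 0.18 (SE, edgeR adjusted p = 0.0729 for both). The 12 genes summed to 1020, 782 and 707 CPM in libraries 1 to 3, against 608 to 677 CPM in reconstituted controls. In that comparison Gadd45a and Bbc3 were at 0.39 and 0.35, and Sesn2 and Pmaip1 at -0.43 and -0.13. Between genotypes in controls 11 of the 12 were lower, with a median of -0.20. The length trend was not taken out of the values of these lists.

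**Figure D5:**
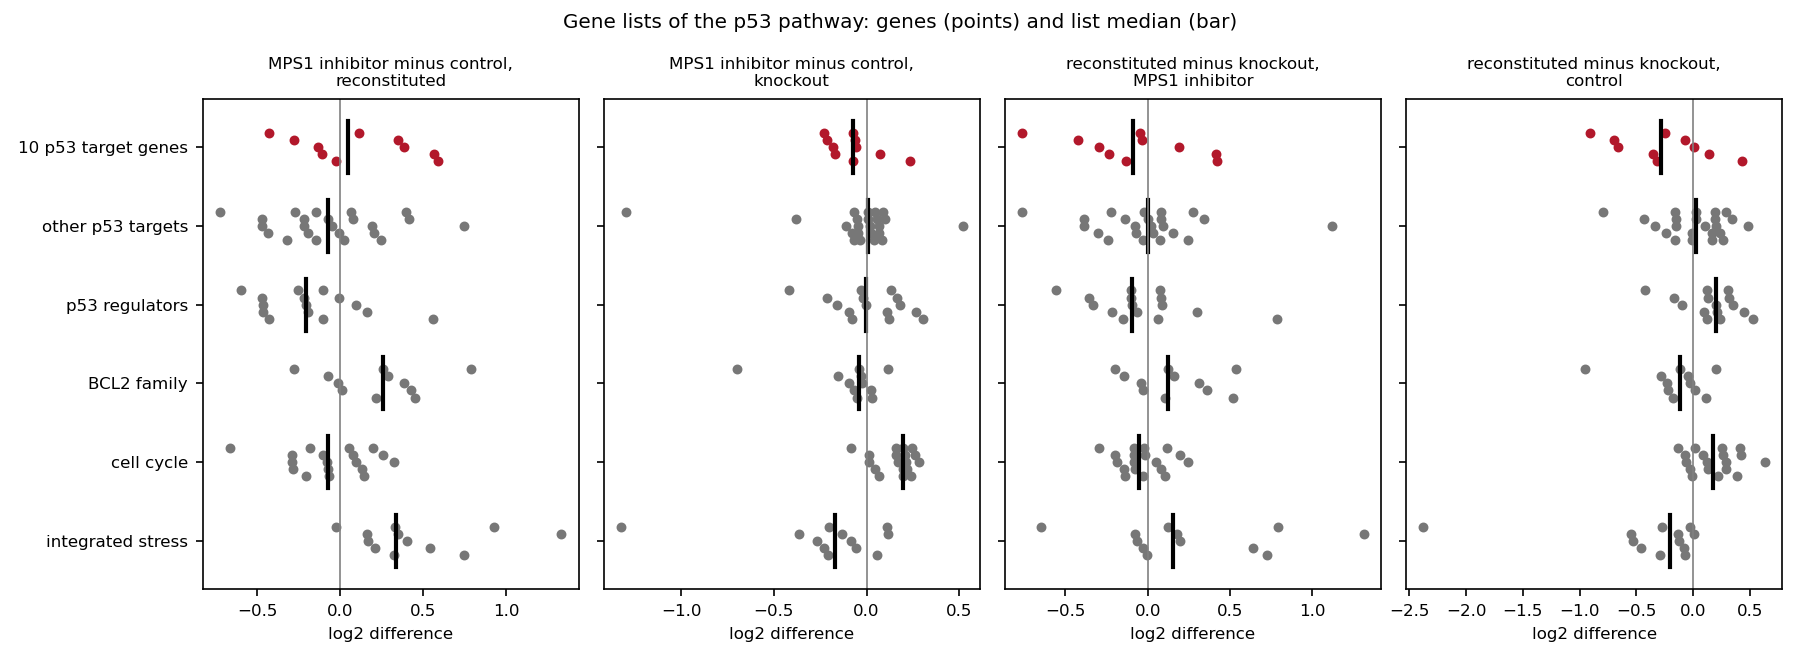
Log2 differences (horizontal axis) of the 10 genes in red and of 5 related gene lists in grey, 1 point a gene and a bar at the list median, for the inhibitor in each genotype and for genotype under each treatment. The 10 genes have medians of 0.04, -0.07, -0.09 and -0.28 from left to right, and the other p53 targets -0.08, 0.01, 0.00 and 0.03.

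Beside the genotype differences of Plk2, Gadd45a and Pmaip1 stood those of interferon-stimulated genes and of cell type markers. Of 10 interferon-stimulated genes, 9 rose in reconstituted tumours in the averaged comparison (edgeR), with a median of 2.39, and their summed level was 980 to 1807 CPM in reconstituted tumours under the inhibitor and 415 to 1167 CPM in reconstituted controls, against 192 to 401 CPM in knockout tumours under the inhibitor and 155 to 440 CPM in knockout controls. Those with the smallest p were Oas2 at 2.51, Oas1a at 2.81, Ifit1 at 3.50 and Ifit3 at 3.57, all products of the antiviral response. The 9 T and NK cell markers were all higher (2 called), summing to 86.5 to 107 CPM in reconstituted tumours under the inhibitor and 51.2 to 75.8 CPM in reconstituted controls, against 19.8 to 35.8 CPM in knockout tumours under the inhibitor and 15.3 to 38.6 CPM in knockout controls. None of these T and NK cell markers was at 0 in any library. The 6 fibroblast markers were all lower with 0 called, at a median of -0.67, summing to 2759 to 8550 CPM in reconstituted tumours under the inhibitor and 8282 to 8756 CPM in reconstituted controls, against 7345 to 14511 CPM in knockout tumours under the inhibitor and 7671 to 17789 CPM in knockout controls. The 5 red blood cell markers were all lower with 0 called, at a median of -1.55, and summed to 50.6 to 112 CPM in reconstituted tumours under the inhibitor and 32.5 to 53.5 CPM in reconstituted controls, against 59.7 to 294 CPM in knockout tumours under the inhibitor and 49.4 to 237 CPM in knockout controls. Of the 11 skeletal muscle markers 10 were higher with 0 called, at a median of 1.21. Of the 6 epithelial markers 5 were lower, with 1 called. Their part in the differences of the 10 genes was not tested. In pieces of whole tumour, fewer cells of a type and less RNA per cell cannot be told apart.

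For the inhibitor in reconstituted tumours, library 1 held the highest Cdkn1a and Bax, and also the highest sums of muscle, epithelial and macrophage markers and the lowest of fibroblast markers among the 3 inhibitor libraries. Skeletal muscle markers (11 genes) summed to 2852 CPM there, against 411 and 78.2 CPM in libraries 2 and 3 and 2.03 to 787 CPM in reconstituted controls. The 6 epithelial markers, which the tumour cells express, summed to 6916 to 10110 CPM under the inhibitor, against 6380 to 6801 CPM in reconstituted controls, and none of them was at 0 in any library. Macrophage markers (7 genes) summed to 2021 to 2935 CPM under the inhibitor, against 1731 to 2004 CPM in controls. Of the 5 keratinocyte markers, Krt1 was at 0 in all 12 libraries, Krt5 in 7 and Lor in 1, while Krt14 and Krt10 averaged 6.84 and 3.71 CPM with no library at 0. Of the 4 adipocyte markers, Plin1 was at 0 in 10 libraries, Cidec in 8 and Adipoq in 7, while Fabp4 averaged 22.4 CPM with no library at 0. The part of these cell types in the values of Cdkn1a and Bax was not tested.

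Reads that other genes share could enter a few of these counts. In the GENCODE M21 annotation of GRCm38, exons of Cdkn1a overlap AC167363.2 on the opposite strand over 273 bases, those of Gadd45a overlap E230016M11Rik on the opposite strand over 238 bases, and those of Bax overlap Gm45808 on the same strand over 192 bases. Whether counting used the strand, and how it divided shared reads, is not stated for these libraries, so these 3 counts are uncertain to that extent.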

How the data were processed

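RNA of 12 tumour pieces was extracted with a silica column kit and a DNase step and prepared with a TruSeq stranded mRNA kit, per the labels' protocols. The submitters' processing notes list Trimmomatic, HISAT2, StringTie and the build GRCm38 (mm10), with no versions or roles. The values deposited by the authors are raw counts, whole numbers for each gene in each library, with no sign of normalization. Whether both reads of a pair were counted is not settled. In a library a count of 2 was found for 802 genes and a count of 1 for 658 (means), so counting error may be larger than the counts show.

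Groups came from the sample labels. Genes were filtered with filterByExpr, scaled by TMM and tested with the quasi-likelihood F-test of edgeR 4.0.16 in R 4.3.3, in 1 model with a mean for each of the 4 groups. P-values were adjusted by Benjamini-Hochberg across the 17885 genes tested, and calls were made below 0.05. There were 7 comparisons. CPM are the deposited counts scaled with the TMM factors, given as values per library or mean ± SD. The fit was tested on simulated data.

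The 10 genes, the related lists and the marker lists were chosen with earlier results of these data known. All 10 were named whatever their values, from each other list up to 4 called genes per comparison, and for likeness the 5 genes closest to Cdkn1a, of which 1 is not reported here. Values of uncalled list genes (Phlda3, Fas, Zmat3, Btg2, Ccng2, Sesn3, Mcl1, Trib3 and Ddit3) were chosen after they were seen. Alternatives were RLE size factors, DESeq2 1.42.0, limma-voom 3.58.1, no filter, only the libraries compared, a replicate block and leaving out each library. A fit with a smooth trend on transcript length per library, over 14505 genes, was added after seeing the data. Transcript lengths are those of the longest coding transcript in GENCODE M21, known for 97.2% of 14811 protein-coding genes tested, and gene positions and promoters are from RefSeq on GRCm38.p6. No 2 libraries of a group agreed within sampling noise.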

Additional observations from a re-analysis of the deposited data

How the results depend on the processing

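Of the 10 genes, edgeR called 0 for the inhibitor in reconstituted tumours, 1 between genotypes under the inhibitor, 0 in controls, 0 for the interaction and 3 between genotypes averaged over treatments. DESeq2 called 2, 3, 3, 2 and 4 of them in the same order, and 1 turned to 0 under the inhibitor when the compared libraries alone were used. Leaving out 1 library gave 0 to 3, 0 to 2, 0 to 1, 0 to 3 and 1 to 2 calls. Over all genes DESeq2 called 3668, 1243, 827, 1365 and 1020, where edgeR called 0, 116, 25, 0 and 279, and the length term gave 348, 59 and 581 for the genotype comparisons. For the inhibitor in knockout tumours and averaged over genotypes, DESeq2 called 3 and 1 of all genes, and edgeR 0. The cause was not tested.

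Libraries of the same replicate number had correlations of deviations from -0.113 to 0.308 over 18 pairs, 9 above 0.1. Libraries of different numbers were not compared in this way, so whether replicate numbers pair the libraries is not settled. With the replicate block, Plk2 was at -0.74 between genotypes (edgeR adjusted p = 0.00245), the 10 genes kept the same counts of calls, and all-gene calls were 43, 15 and 207 for the genotype comparisons. The 2 correlated pairs became 0 on deviations from group means.

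Some values that were not called changed sign. With the length term these were Bax at 0.027 for the inhibitor in knockout tumours and 0.080 between genotypes in controls, Trp53inp1 at -0.12 in controls (-0.0032 with the compared libraries alone), and, for the inhibitor averaged, Gadd45a at -0.072, Ccng1 at 0.0035 and Bbc3 at -0.0016. Leaving out 1 library took the inhibitor difference in knockout tumours over -0.14 to 0.016 for Bax, -0.16 to 0.061 for Pmaip1 and -0.024 to 0.44 for Sesn2, that in reconstituted tumours over -0.076 to 0.041 for Mdm2, and the averaged one over -0.061 to 0.018 for Ccng1, -0.23 to 0.0070 for Sesn2 and -0.030 to 0.075 for Trp53inp1. Between genotypes it spanned -0.13 to 0.034 for Ccng1, -0.083 to 0.034 for Mdm2 and -0.36 to 0.018 for Sesn2 under the inhibitor, -0.11 to 0.077 for Trp53inp1 in controls and -0.022 to 0.13 for Cdkn1a averaged. The interaction spanned -0.013 to 0.10 for Mdm2, -0.21 to 0.026 for Plk2 and -0.19 to 0.027 for Pmaip1. Counting error was largest for Sesn2, whose lowest count was 330.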
